A study of Mus musculus with 20 samples.

Results

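The 10 heat shock chaperone genes Hspa1a, Hspa1b, Hsph1, Dnajb1, Hsp90aa1, Hsp90ab1, Hspa8, Hspd1, Hspe1 and Hspb1 of the mouse were followed by name through RNA-seq of whole bone marrow. All 10 symbols matched 1 gene each among the 37620 genes counted, and 9 of the 10 had enough reads to be tested. The 20 mice formed 4 groups of 5. Every mouse was a wild-type recipient transplanted with marrow that carried rtTA and a doxycycline-driven U2AF1 transgene, either U2AF1(WT) or U2AF1(S34F), a mutant splicing factor found in myelodysplastic syndromes. All 20 mice ate chow with 625 ppm doxycycline for 7 days, and over the last 5 days they were infused intravenously with sudemycin D6, which binds the SF3B1 protein of the spliceosome, or with vehicle. The groups were thus U2AF1(WT) with vehicle, U2AF1(WT) with sudemycin D6, U2AF1(S34F) with vehicle and U2AF1(S34F) with sudemycin D6. Recipients of the same genotype can share a donor pool, so p-values measure the spread between these recipients.

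Heat shock proteins keep other proteins folded. When unfolded protein accumulates, the transcription factor HSF1 is freed from chaperones, binds paired and tripled GAA units in promoters and switches on the inducible genes within minutes, while constitutive relatives are made in every cell at all times. In blood-forming marrow the constitutive members serve rapidly dividing cells, and the inducible Hsp70 transcripts are also known to rise when tissue is handled.

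Between 41145892 and 62138138 reads per mouse were assigned to genes. Female-type and male-type transcripts split by genotype. Xist lay between 879 and 1593 CPM (reads relative to the library's total) in the 10 U2AF1(WT) mice and between 0.0198 and 0.145 CPM in the 10 U2AF1(S34F) mice, while Eif2s3y lay between 76.8 and 105 CPM in U2AF1(S34F) mice and had no read in U2AF1(WT) mice. Genotype and this sex-linked split cannot be told apart in any comparison of the genotypes below. Neutrophil markers were the most abundant marker list, with summed levels of 68269 to 76617 CPM in U2AF1(WT) mice with vehicle, 63074 to 112750 with sudemycin D6, 89079 to 145894 in U2AF1(S34F) mice with vehicle and 75670 to 127606 with sudemycin D6, and B cell markers summed to 16.6 to 174 CPM. In bulk marrow, fewer cells of a type and less RNA per cell cannot be told apart. U2AF1(WT) vehicle mouse 2 stood apart, with the highest Hsp90ab1 and Hspa8 levels of its group and the lowest summed level of immediate-early transcripts (4324 CPM, against 6679 to 8689 CPM in the other 4), so results that rest on it are given with and without it. The mouse was singled out by these same values, so calls gained without it were picked with the values seen. The check for outlying mice given at the end did not flag it for Hsp90ab1 or Hspa8.

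The promoters of the inducible Hsp70 pair are shown because the pair moved most between the genotypes and because the copies are near-identical, so that reads can be assigned to either. Windows run from 250 bases before to 50 bases after the RefSeq start (GRCm38.p6), and each had a single exact match in NCBIM37 (mm9), the build of the deposited junctions. Hspa1a is on the minus strand at chr17:35109052-35109351 and Hspa1b on the same strand at chr17:35096134-35096433. Capitals mark the motif GAANNTTC, a pair of inverted GAA units.

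Hspa1a: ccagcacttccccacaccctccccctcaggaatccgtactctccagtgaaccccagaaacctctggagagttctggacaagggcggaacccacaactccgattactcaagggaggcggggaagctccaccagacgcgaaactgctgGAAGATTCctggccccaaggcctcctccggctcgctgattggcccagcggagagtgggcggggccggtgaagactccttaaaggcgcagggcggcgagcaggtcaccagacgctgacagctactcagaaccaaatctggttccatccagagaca
Hspa1b: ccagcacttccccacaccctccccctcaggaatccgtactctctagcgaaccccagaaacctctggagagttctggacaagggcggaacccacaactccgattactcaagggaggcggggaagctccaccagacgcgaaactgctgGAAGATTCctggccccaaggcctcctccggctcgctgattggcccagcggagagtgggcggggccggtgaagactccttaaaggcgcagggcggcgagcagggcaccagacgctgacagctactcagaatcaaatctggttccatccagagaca

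Counted from the first base of the window, the copies differ by C44T, T47C, T249G and C276T (Hspa1a base first), which leaves 98.67% identity over 300 positions. Their coding sequences, of 1926 and 1929 bases, differ at 8 positions and by a gap of 3 bases, an identity of 99.58%.

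A longer run of GAA units stands between Hspe1 and Hspd1, which are transcribed away from each other. The window of Hspe1, on the plus strand at chr1:55144742-55145041, is shown with the run in capitals. The second RefSeq start of Hspd1, on the other strand, has the same run in its own window.

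Hspe1: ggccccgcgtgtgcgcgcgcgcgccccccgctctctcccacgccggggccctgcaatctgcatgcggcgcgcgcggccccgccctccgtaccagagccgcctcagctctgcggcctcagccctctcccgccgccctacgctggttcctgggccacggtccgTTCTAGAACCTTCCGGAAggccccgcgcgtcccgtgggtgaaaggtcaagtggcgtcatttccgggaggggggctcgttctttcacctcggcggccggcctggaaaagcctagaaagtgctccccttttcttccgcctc

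Both strands were searched for the pairs GAANNTTC and TTCNNGAA and for the longer form GAANNTTCNNGAA, whose matches contain both pairs. RefSeq had windows for 7 of the 10 members (10 windows), and 6 of the 7 held a pair in at least 1 window, against 15.1% of 32851 mouse promoter windows. The longer form was in windows of 3 members, Hspd1, Hspe1 and Hsph1, against 0.603% of all windows. Members are counted here per gene over all of its windows, while the shares are per window. The members are not separate either, as Hspa1a and Hspa1b have near-identical windows and Hspd1 and Hspe1 share the same run. Dnajb1 held neither form in either of its windows. Hsp90aa1, Hsp90ab1 and Hspa8 had no entry. These matches are letters in a window and not measured binding.

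Per kilobase of exon, both Hsp90 genes and Hspa8 were the most abundant. The length is that of all annotated exons of a gene merged, 2999 bases for Hsp90ab1, 4156 for Hspa8 and 7042 for Hsph1. The order depends on it, as without length Hspa8 had the higher mean, 758 CPM against 710 CPM for Hsp90ab1. Averaged over the 20 mice, Hsp90ab1 reached 237 ± 47.2 CPM per kb (SD), Hspa8 182 ± 25.9, Hsp90aa1 83.4 ± 18.7 and Hspd1 43.4 ± 8.79. Dnajb1 followed with 18.6 ± 2.81 CPM per kb and Hspe1 with 16.9 ± 4.06, neighbours whose spreads overlap. Hsph1 stood at 3.26 ± 0.824 CPM per kb, Hspa1b at 1.81 ± 2.11 and Hspa1a at 1.77 ± 2.11. Hspb1 was last with 0.0796 ± 0.0528 CPM per kb. The levels of Hsp90ab1 and Hspa8 also overlap between mice, and those of Hspa1a and Hspa1b are nearly the same.

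**Figure D1:**
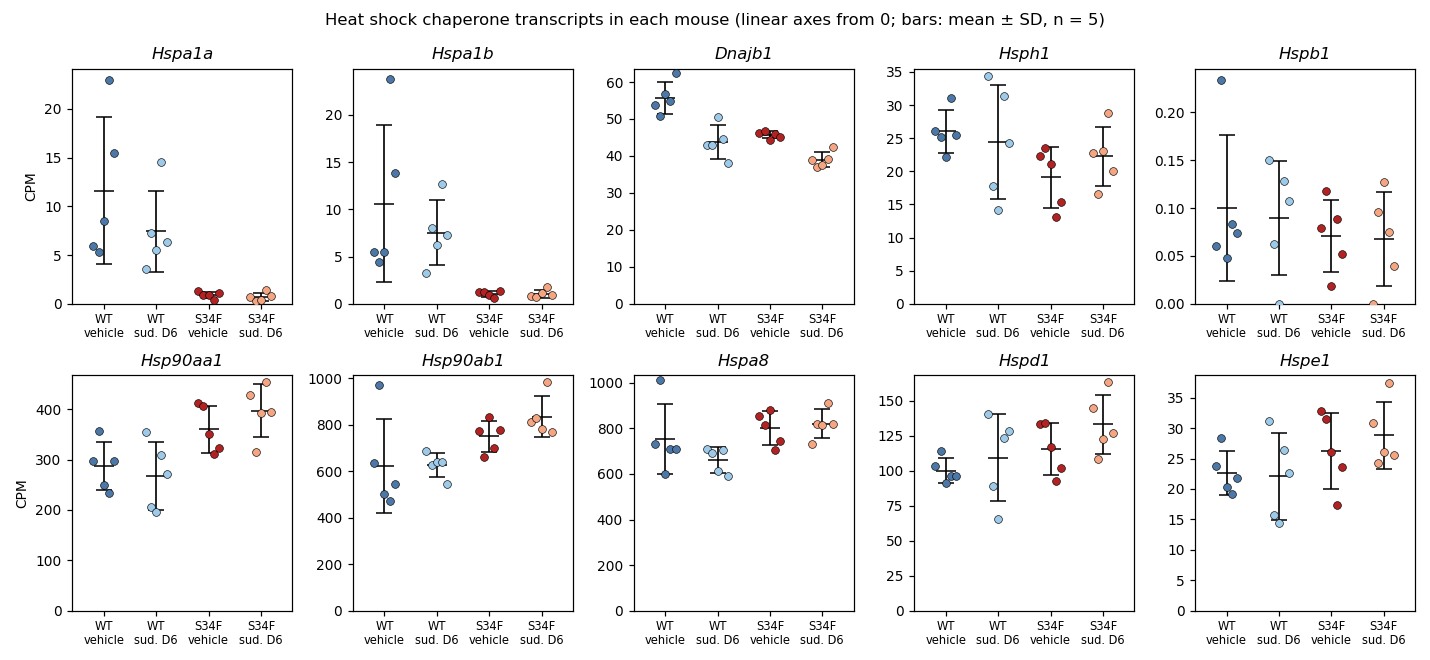
Level of each member in CPM (linear axes from 0) in each of the 20 mice, by group, with the mean and SD of 5 mice. Hspa1a and Hspa1b lie below 2 CPM in every U2AF1(S34F) mouse and above 3 CPM in every U2AF1(WT) mouse, while Dnajb1 is lower with sudemycin D6 than with vehicle in both genotypes.

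Hspa1a (mm9 chr17:35106144-35109069, minus strand) is intronless and encodes the stress-inducible Hsp70. Its levels in U2AF1(WT) vehicle mice 1, 2, 3, 4 and 5 were 5.92, 5.28, 8.45, 23.0 and 15.4 CPM. In sudemycin D6-treated U2AF1(WT) mice 6, 8, 9, 10 and 12 they were 3.54, 7.27, 5.50, 14.5 and 6.36 CPM. The spread within each U2AF1(WT) group was wide, with mice 4 and 5 the highest with vehicle and mouse 10 the highest with drug. In U2AF1(S34F) vehicle mice 1, 3, 5, 7 and 11 the levels were 1.28, 0.857, 0.886, 0.389 and 1.09 CPM, and in sudemycin D6-treated U2AF1(S34F) mice 2, 6, 9, 10 and 12 they were 0.679, 0.325, 0.417, 1.41 and 0.794 CPM. No U2AF1(S34F) mouse reached the lowest U2AF1(WT) mouse. The gene Gm20481 overlaps Hspa1a by 2213 bases on the other strand, and whether the counting used strand is not given in the sources used here. These levels rest on 188 to 1109 reads per U2AF1(WT) mouse and on 17 to 75 reads per U2AF1(S34F) mouse.

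Hspa1b (chr17:35093381-35096183, minus strand), the neighbouring copy of the same protein, followed the same order. With vehicle, U2AF1(WT) mice 1 to 5 had 5.48, 4.41, 5.43, 23.7 and 13.9 CPM, and with sudemycin D6 mice 6, 8, 9, 10 and 12 had 3.27, 8.07, 6.17, 12.7 and 7.30 CPM. U2AF1(S34F) mice lay between 0.601 and 1.31 CPM with vehicle and between 0.727 and 1.79 CPM with drug, again with no overlap between the genotypes. Within genotypes the copies rose and fell together, with Pearson's r = 0.959 (permutation p = 0.00012, BH-adjusted 0.0003) and Spearman's rho = 0.867 (permutation p = 0.00212, adjusted 0.00353) over the 10 U2AF1(WT) mice. Over the 10 U2AF1(S34F) mice r was 0.813 (permutation p = 0.00392, adjusted 0.00653) and rho 0.879 (permutation p = 0.00171, adjusted 0.00353). Without the 2 mice farthest from the median of Hspa1a, r was 0.888 and 0.671. Reads that fit either copy contribute to this agreement to an extent that was not tested.

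With vehicle, Hspa1a was 12.6-fold lower in U2AF1(S34F) than in U2AF1(WT) marrow (log2 fold change −3.65 ± 0.48 SE, FDR 0.000544, edgeR quasi-likelihood test) and Hspa1b 9.65-fold lower (−3.27 ± 0.51, FDR 0.00148). With sudemycin D6 the differences were −3.30 ± 0.44 (FDR 0.000389) for Hspa1a and −2.76 ± 0.35 (FDR 0.000283) for Hspa1b. Counted as 1 feature, the sum of the copies was 11.2-fold lower with vehicle (log2 fold change −3.48 ± 0.51, FDR 0.00131) and 8.16-fold lower with drug (−3.03 ± 0.37, FDR 0.000263). Both copies kept their call in every alternative fit and without any single mouse, with Hspa1a log2 fold changes between −3.83 and −3.18 with vehicle. Calls of this kind were common: at FDR<10%, 19.7% of the 14817 genes tested were higher and 19.8% lower in U2AF1(S34F) marrow with vehicle, and 17.2% higher and 19.6% lower of 14677 genes with sudemycin D6. No change of the pair with drug was detected in either genotype (sum of the copies, −0.59 ± 0.49, FDR 0.676 in U2AF1(WT), and −0.13 ± 0.30, FDR 0.846 in U2AF1(S34F)), and the standard errors leave room for sizeable changes in U2AF1(WT) mice. The study's methods place the harvest on the day after the last infusion, so changes at earlier times were not measured.

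Immediate-early genes, which are transcribed within minutes of a stimulus or of tissue handling, moved with the Hsp70 pair. All 21 listed genes (such as Fos, Jun, Egr1 and Zfp36) were lower in U2AF1(S34F) marrow with vehicle and 19 of 21 with sudemycin D6, with median log2 fold changes of −1.42 and −1.34 against medians of 0.00 and −0.03 over all genes. Their summed level was 3746 to 8689 CPM in U2AF1(WT) mice and 1795 to 2783 CPM in U2AF1(S34F) mice, without overlap. Within the genotypes the summed level and the Hsp70 pair were related by r = 0.564 (permutation p = 0.0896, adjusted 0.112) and rho = 0.394 (permutation p = 0.263, adjusted 0.263) in U2AF1(WT) mice, with r = 0.331 without the 2 mice farthest from the median. In U2AF1(S34F) mice r was 0.417 (permutation p = 0.231, adjusted 0.231) and rho 0.418 (permutation p = 0.234, adjusted 0.263), with r = 0.272 without those 2 mice, so that neither relation passed a threshold. The part of the immediate-early genes, or of the handling of the marrow, in the difference of the Hsp70 pair was not tested.

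**Figure D2:**
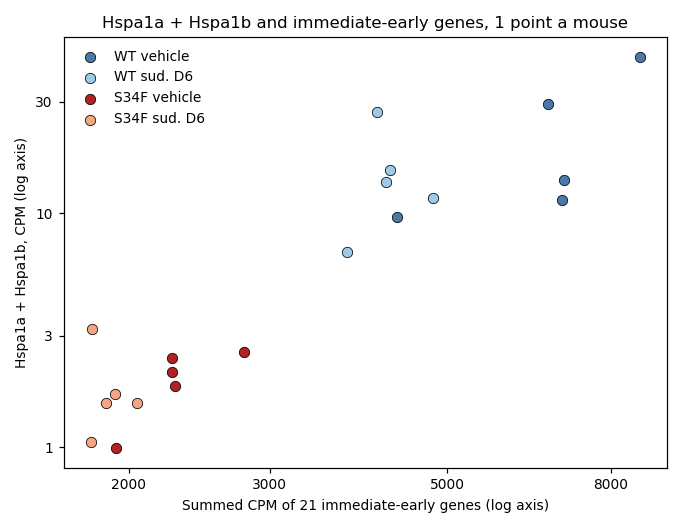
Summed CPM of 21 immediate-early genes (horizontal, log axis) against the summed CPM of Hspa1a and Hspa1b (vertical, log axis), with 1 point per mouse coloured by group. The 10 U2AF1(S34F) mice lie at 1795 to 2783 CPM on the horizontal axis and the 10 U2AF1(WT) mice at 3746 to 8689 CPM, and the genotypes, but not the treatments, separate on both axes.

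Over the 20 mice the genes whose level was most like that of Hspa1a (Pearson's r of log2(CPM + 1)) were Neat1 (r = 0.94), a nuclear non-coding RNA, Zfp36 (r = 0.94), an RNA-destabilizing protein, and Klf2 (r = 0.93), a transcription factor. These values describe 20 points that fall into a cluster for each genotype.

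Dnajb1 (chr8:86132074-86135801, plus strand) encodes the Hsp40 co-chaperone that feeds substrates to Hsp70 and stimulates its ATPase. It was the only member called with sudemycin D6 in the fits of all mice. Without U2AF1(WT) vehicle mouse 2, Hsp90ab1 was also called with genotype as a term (+0.19 ± 0.07, FDR 0.0684). In U2AF1(WT) marrow the levels of Dnajb1 were 53.7, 50.8, 56.8, 54.9 and 62.4 CPM in vehicle mice 1 to 5, against 43.1, 42.8, 50.5, 44.7 and 38.0 CPM in drug-treated mice 6, 8, 9, 10 and 12. The highest drug-treated mouse lay just below the lowest vehicle mouse, so the groups did not overlap. In U2AF1(S34F) marrow the vehicle mice 1, 3, 5, 7 and 11 had 46.2, 46.7, 44.4, 46.05 and 45.0 CPM, and the drug-treated mice 2, 6, 9, 10 and 12 had 38.9, 37.1, 37.7, 39.0 and 42.3 CPM, again without overlap.

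The log2 fold change of Dnajb1 with sudemycin D6 was −0.37 ± 0.09 in U2AF1(WT) mice (FDR 0.0583, edgeR) and −0.23 ± 0.05 in U2AF1(S34F) mice (FDR 0.0214). With all 20 mice and genotype as a term it was −0.29 ± 0.05 (FDR 0.000756), and the call held without any single mouse. Within U2AF1(WT) mice alone it was lost (FDR 0.116 to 0.17) without vehicle mouse 1, 3 or 5 or without drug-treated mouse 8, 10 or 12. Genes called with the drug were fewer than between the genotypes: 1.18% higher and 1.89% lower of 14763 in U2AF1(WT) mice, 4.94% higher and 5.85% lower of 14714 in U2AF1(S34F) mice, and 7.92% higher and 7.31% lower of 15069 with genotype as a term. The immediate-early list also moved with the drug, with 10 of 21 genes lower in U2AF1(WT) and 8 of 21 lower in U2AF1(S34F) mice, and its part in the Dnajb1 change was not tested.

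Dnajb1 was also lower in U2AF1(S34F) than in U2AF1(WT) marrow with vehicle (−0.30 ± 0.07, FDR 0.00539, no overlap of the groups). With sudemycin D6 the genotype difference was −0.17 ± 0.08 (FDR 0.122), a call that was gained without U2AF1(WT) mouse 12 (FDR 0.048), with a minimum level for genes (FDR 0.0857) and in a model of all mice (FDR 0.0755).

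Hsph1 (chr5:150416862-150438951, minus strand) encodes Hsp110, which exchanges the nucleotide of Hsp70. Vehicle-treated U2AF1(WT) mice 1 to 5 had 26.05, 25.2, 22.2, 31.1 and 25.5 CPM, and vehicle-treated U2AF1(S34F) mice 1, 3, 5, 7 and 11 had 22.3, 23.6, 21.04, 13.2 and 15.3 CPM. U2AF1(S34F) mice 7 and 11 were the lowest, and mice 1 and 3 lay within the range of the U2AF1(WT) mice. The difference was −0.46 ± 0.15 (FDR 0.031), which held without any single mouse but was lost in a model of all mice (FDR 0.113). With sudemycin D6 the levels ranged from 14.2 to 34.4 CPM in U2AF1(WT) mice and from 16.5 to 28.8 CPM in U2AF1(S34F) mice, and the difference was −0.14 ± 0.23 (FDR 0.677). Genes most like Hsph1 over the 20 mice were Telo2 (r = 0.92), Cad (r = 0.92) and Usp10 (r = 0.91).

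Hspb1 (chr5:136363789-136365433, plus strand), a small heat shock protein that holds unfolded protein for refolding, was hardly transcribed. Its count was 0 to 13 reads per mouse, and its level was 0.0475 to 0.234 CPM in U2AF1(WT) and 0.0185 to 0.118 CPM in U2AF1(S34F) mice with vehicle, and 0 to 0.151 and 0 to 0.127 CPM with sudemycin D6. The groups overlapped, and no difference could be tested at this depth.

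Hsp90aa1 (chr12:111928815-111940938, minus strand) encodes the inducible isoform of Hsp90, which matures kinases and steroid receptors. In U2AF1(WT) mice, in the order of mice given for Dnajb1, its levels were 298, 356, 250.01, 234 and 297 CPM with vehicle and 354, 206, 196, 309 and 272 CPM with sudemycin D6. In U2AF1(S34F) mice they were 411, 406, 349.8, 310.0 and 323 CPM with vehicle and 428, 314, 392, 454 and 395 CPM with drug. U2AF1(S34F) mice were higher, with some overlap in both treatments. The difference was +0.31 ± 0.12 with vehicle (FDR 0.0593) and +0.56 ± 0.17 with drug (FDR 0.0254). With vehicle the call was lost in a model of all mice (FDR 0.103) and without U2AF1(S34F) mouse 1 or 3 or U2AF1(WT) mouse 3 or 4 (FDR 0.103 to 0.145), and with drug it held without any single mouse but not in the mice that share a number across genotypes (FDR 0.103).

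Hsp90ab1 (chr17:45704724-45710220, minus strand) encodes the constitutive isoform. Its levels were 634, 970.0, 501, 473 and 543 CPM in U2AF1(WT) mice with vehicle and 688, 627, 641, 642 and 547 CPM with drug. In U2AF1(S34F) mice they were 774, 661, 835, 702 and 778 CPM with vehicle and 813, 831, 782, 984 and 768 CPM with drug. Vehicle mouse 2 of the U2AF1(WT) group was above every other mouse but drug-treated U2AF1(S34F) mouse 10, and with drug every U2AF1(S34F) mouse was above every U2AF1(WT) mouse. The difference with drug was +0.41 ± 0.09 (FDR 0.00842) and held without any single mouse. With vehicle it was +0.25 ± 0.17 (FDR 0.287), and without U2AF1(WT) mouse 2 it was +0.47 ± 0.10 (FDR 0.00316).

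Hspa8 (chr9:40609067-40613283, plus strand) encodes the constitutive Hsc70. Its levels in U2AF1(WT) mice were 731, 1011, 600.0, 708 and 709.7 CPM with vehicle and 707, 689.9, 612, 705 and 589 CPM with drug. In U2AF1(S34F) mice they were 855, 816, 882, 704 and 746 CPM with vehicle and 731, 819, 815, 910.1 and 821 CPM with drug. With drug the genotypes did not overlap and the difference was +0.31 ± 0.09 (FDR 0.0257), which held without any single mouse. With vehicle it was +0.08 ± 0.13 (FDR 0.671), and +0.21 ± 0.09 (FDR 0.0857) without U2AF1(WT) mouse 2. The snoRNA genes Snord14c, Snord14d and Snord14e, lie inside Hspa8 on the same strand.

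Hspd1 (chr1:55134679-55145087, minus strand) and Hspe1 (chr1:55144976-55148151, plus strand) encode the ring and the lid of the mitochondrial chaperonin. Hspd1 lay between 65.5 and 163 CPM and Hspe1 between 14.3 and 37.5 CPM, and sudemycin D6-treated U2AF1(WT) mice 8 and 9 were lowest of their group for both. Over all 20 mice the pair was related by r = 0.926 (permutation p = 1e-05, the smallest that 100000 permutations can give, adjusted 5e-05) and rho = 0.898 (permutation p = 1e-05, adjusted 5e-05), and r was 0.882 without the 2 mice farthest from the median of Hspd1. This relation spans both genotypes and both treatments, and the part of differences between the groups in it was not tested. With vehicle the genotype differences were +0.20 ± 0.10 (FDR 0.17) for Hspd1 and +0.20 ± 0.16 (FDR 0.362) for Hspe1. Without U2AF1(S34F) mouse 7 they were +0.26 ± 0.10 (FDR 0.0579) and +0.31 ± 0.13 (FDR 0.087), and Hspd1 was also called without U2AF1(WT) mouse 2 (+0.25 ± 0.11, FDR 0.0796). With drug they were +0.28 ± 0.19 (FDR 0.297) and +0.38 ± 0.21 (FDR 0.196), and Hspe1 was called without U2AF1(WT) mouse 6 (+0.54 ± 0.19, FDR 0.0564).

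**Figure D3:**
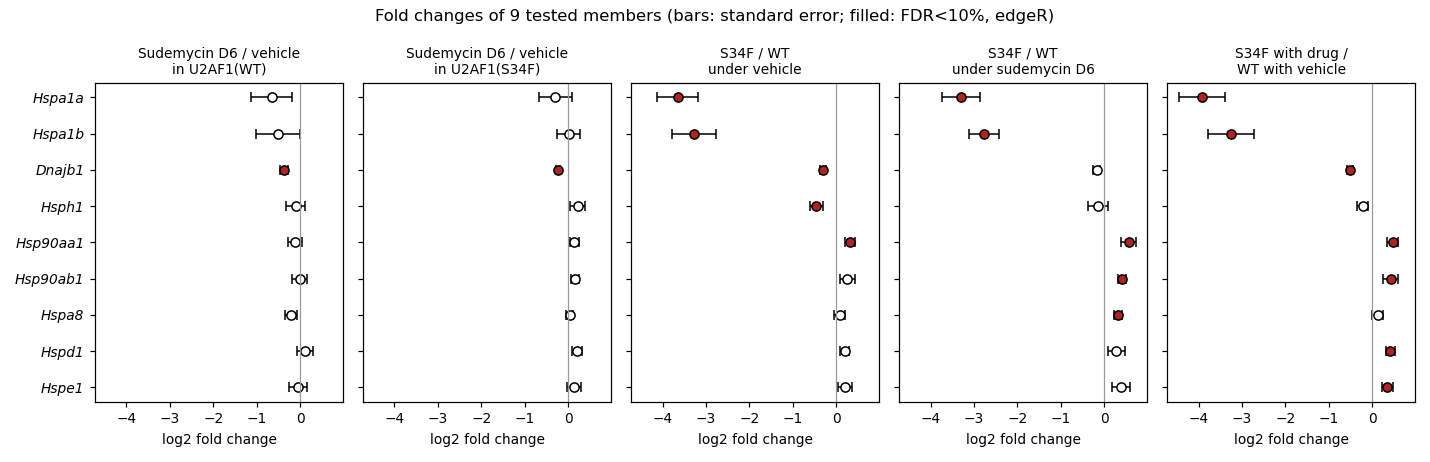
Log2 fold change (horizontal axis) with its SE for the 9 tested members, with a panel per comparison and filled points for FDR<10%. Hspa1a and Hspa1b lie at −3.65 and −3.27 between the genotypes with vehicle, and Dnajb1 is the only filled point in the drug panels.

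Across the members, 1 of 9 was called higher and 4 lower in U2AF1(S34F) marrow with vehicle, and 3 higher and 2 lower with sudemycin D6. Over all genes 19.7% were higher and 19.8% lower with vehicle, and 17.2% and 19.6% with drug, so that 1 of 9 higher and 2 of 9 lower are near the share of all genes. Under the drug 1 of 9 was called, in each genotype and with genotype as a term. The shares of all genes called higher and lower were 4.94% and 5.85% for U2AF1(S34F) but 1.18% and 1.89% for U2AF1(WT). With genotype as a term these shares were 7.92% and 7.31%. Whether 1 of 9 exceeds such shares was not tested. The median log2 fold change of the 9 members was −0.12 with drug in U2AF1(WT) mice, 0.13 with drug in U2AF1(S34F) mice, 0.08 between genotypes with vehicle and 0.28 with drug, beside medians of 0.00, −0.01, 0.00 and −0.03 over all genes. These comparisons share mice and are given side by side. No difference between the genotypes in a member's drug change passed the threshold (edgeR interaction term, 0 of 9, FDR between 0.81 and 0.971, 0 of 9 at an unadjusted p under 0.05 and 0 of 9 by DESeq2), where 0.013% of 15392 genes were called, 1144 genes had an unadjusted p under 0.05 and DESeq2 called 116. In the main fit the interaction was positive for all 9 members, with a median of 0.22 beside −0.04 over all genes. It turned negative in 1 of 24 alternative fits for Hsp90ab1 and Hspa1b and in 2 for Hspd1 and Hspa1a. Hspa1a and Hspa1b are near-identical copies, and the share of all genes with a positive interaction was not counted.

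Marrow with both the mutation and the drug was also compared with marrow that had neither. Of the 9 tested members 7 were called, 3 lower (Hspa1a −3.93 ± 0.53, FDR 0.00044, Hspa1b −3.24 ± 0.53, FDR 0.00116, and Dnajb1 −0.51 ± 0.07, FDR 0.00015) and 4 higher. Hsp90aa1 was higher by 0.47 ± 0.12 (FDR 0.00759) and Hspd1 by 0.41 ± 0.10 (FDR 0.00675). Hsp90ab1 was higher by 0.42 ± 0.17 (FDR 0.0671), a call lost without U2AF1(WT) mouse 1, 3, 4 or 5 or U2AF1(S34F) mouse 6 or 10 (FDR 0.102 to 0.151) or with no filter on low counts (FDR 0.132). This call held without U2AF1(WT) mouse 2, and the change was 0.33 to 0.64 over the fits without 1 mouse. Hspe1 was higher by 0.35 ± 0.13 (FDR 0.05), a call lost without U2AF1(WT) mouse 3 or 4 or U2AF1(S34F) mouse 10 (FDR 0.117 to 0.136) or in a model of all mice (FDR 0.181). Among 14761 genes 25.1% were higher and 25.1% lower in this comparison. Hspa8 was +0.12 ± 0.12 (FDR 0.43), and it was called without U2AF1(WT) mouse 2 (+0.25 ± 0.08, FDR 0.0221), as was Hsph1 without U2AF1(S34F) mouse 10 (−0.34 ± 0.12, FDR 0.0398). This comparison shares the vehicle-treated U2AF1(WT) mice and the drug-treated U2AF1(S34F) mice with the comparisons above.

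The genes that regulate and assist the members moved unevenly between the genotypes. Their counts are to be read against the shares over all genes, 19.7% higher and 19.8% lower with vehicle and 17.2% and 19.6% with drug. Of the HSF family, Hsf1, the main activator of the response, was lower in U2AF1(S34F) marrow with vehicle (−0.46 ± 0.11, FDR 0.00867) and with sudemycin D6 (−0.40 ± 0.10, FDR 0.0108), its group means falling from 19.0 to 13.9 CPM and from 19.3 to 14.6 CPM. Hsf2, a related factor active in development, was higher with drug (+0.73 ± 0.13, FDR 0.00216) and was +0.16 ± 0.16 (FDR 0.477) with vehicle. Hsbp1, which binds HSF1 and restrains it, was higher by 0.19 ± 0.08 (FDR 0.0979) and by 0.21 ± 0.08 (FDR 0.0675). Hsf4 was 0.10 ± 0.41 (FDR 0.891) with drug and was too low to be tested with vehicle, and Hsf2bp, Hsf3 and Hsf5 were too low in both treatments. With the drug, the FDR of Hsf1, Hsf2 and Hsbp1 was 0.472 to 0.999 in U2AF1(WT) and 0.212 to 0.759 in U2AF1(S34F) mice.

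Of 14 tested subunits of the TRiC chaperonin and of prefoldin, which fold actin and tubulin, 12 were higher and 0 lower in U2AF1(S34F) marrow with vehicle and 9 were higher and 0 lower with sudemycin D6. The median log2 fold changes were 0.32 and 0.37. Vbp1 was higher by 0.64 ± 0.10 (FDR 0.00079) and 0.49 ± 0.08 (FDR 0.00155), and Pfdn1 by 0.47 ± 0.13 (FDR 0.0165) and 0.51 ± 0.09 (FDR 0.00258). With the drug the medians were 0.05 in U2AF1(WT) and 0.08 in U2AF1(S34F) mice.

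Of 20 Hsp90 co-chaperones, 5 were higher and 3 lower with vehicle and 5 higher and 5 lower with drug, near the shares over all genes for both directions with vehicle. Sugt1, an adaptor of Hsp90, was higher by 0.60 ± 0.11 (FDR 0.00169) with vehicle and by 0.45 ± 0.11 (FDR 0.0102) with drug. In the same order, Chordc1 was higher by 0.46 ± 0.08 (FDR 0.000975) and 0.47 ± 0.10 (FDR 0.00448). Ptges3, the p23 co-chaperone, was higher by 0.40 ± 0.10 (FDR 0.0117) and 0.58 ± 0.13 (FDR 0.00726). With the drug, Fkbp5, an immunophilin of the steroid receptor complex, was higher in U2AF1(WT) mice (+0.65 ± 0.12, FDR 0.0136) and Nudc in U2AF1(S34F) mice (+0.20 ± 0.06, FDR 0.0818), each the only call of the list.

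Of 23 cytosolic and nuclear Hsp40 genes beside Dnajb1, 6 were higher and 5 lower between the genotypes with vehicle, and 5 higher and 3 lower with drug. Dnajb4, a close relative of Dnajb1, was lower with sudemycin D6 in U2AF1(WT) (−0.88 ± 0.16, FDR 0.0136) and in U2AF1(S34F) mice (−0.42 ± 0.12, FDR 0.0581), and Dnaja1, an Hsp70 partner, in U2AF1(WT) mice (−0.47 ± 0.09, FDR 0.0155). Dnajb5 was higher with the drug in U2AF1(S34F) mice (+0.33 ± 0.10, FDR 0.0732). Between the genotypes Dnajb4 was −0.49 ± 0.11 (FDR 0.00662) and Dnajb5 −0.46 ± 0.14 (FDR 0.0219) with vehicle. With drug Dnajb5 was −0.33 ± 0.10 (FDR 0.0314), Dnaja4 −0.89 ± 0.33 (FDR 0.0603) and Dnajb2 −0.59 ± 0.18 (FDR 0.0275).

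Of 9 exchange factors and adaptors of Hsp70, 3 were higher and 2 lower between the genotypes in each treatment. Bag3, itself a heat shock gene, was lower with vehicle (−0.58 ± 0.16, FDR 0.0147) and was +0.20 ± 0.18 (FDR 0.434) with drug. Bag6 was −0.45 ± 0.10 (FDR 0.00523) with vehicle and −0.31 ± 0.07 (FDR 0.00735) with drug. St13, which stabilizes Hsp70 bound to its substrate, was +0.26 ± 0.09 (FDR 0.0346) with vehicle and +0.35 ± 0.12 (FDR 0.0498) with drug. Bag4 was +0.27 ± 0.08 (FDR 0.0201) with vehicle and +0.31 ± 0.09 (FDR 0.0213) with drug. With the drug, Bag6 was higher in U2AF1(S34F) mice (+0.26 ± 0.07, FDR 0.0602). Of 6 other Hsp70 and Hsp110 genes, Hspa4 (+0.20 ± 0.08, FDR 0.0623 and +0.36 ± 0.10, FDR 0.0176) and Hspa4l (+0.26 ± 0.08, FDR 0.0229 and +0.32 ± 0.08, FDR 0.0111) were higher in U2AF1(S34F) marrow in both treatments, and Hspa12a was lower with the drug in U2AF1(S34F) mice (−1.04 ± 0.31, FDR 0.0708).

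Of 12 mitochondrial chaperones and proteases, 3 were higher with vehicle and 4 with drug between the genotypes and 0 lower. Dnajc15, a co-chaperone of protein import, was higher by 0.80 ± 0.17 (FDR 0.00392) and 0.98 ± 0.16 (FDR 0.0011), Grpel2 by 0.33 ± 0.08 (FDR 0.00798) with vehicle and Dnajc19 by 0.37 ± 0.12 (FDR 0.0423) with drug. Grpel1, an exchange factor of mitochondrial Hsp70, was higher with the drug in U2AF1(S34F) mice (+0.18 ± 0.05, FDR 0.0613). Of 19 chaperones of the endoplasmic reticulum, 3 were higher and 3 lower with vehicle and 10 higher and 2 lower with drug. Calr, a lectin chaperone, was higher by 0.62 ± 0.12 (FDR 0.00331) with drug and Hspa13 by 0.47 ± 0.11 (FDR 0.0063) and 0.56 ± 0.07 (FDR 0.000348). Between the genotypes Dnajb9 was lower with vehicle (−0.76 ± 0.14, FDR 0.00196) and with drug (−0.38 ± 0.10, FDR 0.0166). Dnajb9 was also lower with the drug than with vehicle in U2AF1(WT) mice (−0.73 ± 0.11, FDR 0.00418). With the drug in U2AF1(S34F) mice, Hyou1 (+0.29 ± 0.09, FDR 0.091) and Dnajc10 (+0.23 ± 0.07, FDR 0.0724) were higher. Of the small heat shock proteins beside Hspb1, at most 2 could be tested and 1 was lower between the genotypes in each treatment.

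**Figure D4:**
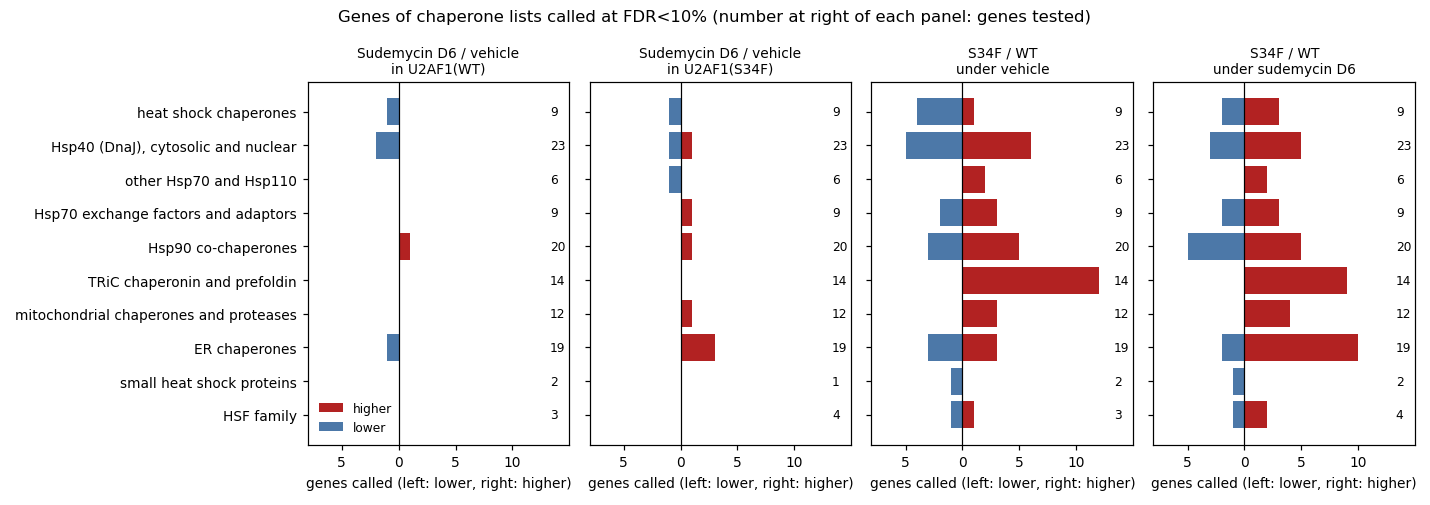
Number of genes called at FDR<10% in the members and in 9 further chaperone lists (bars to the left, lower, and to the right, higher), with a panel per comparison and the number tested at the right of each panel. TRiC and prefoldin genes have 12 calls to the right with vehicle and 9 with sudemycin D6 between the genotypes.

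Cell type markers moved with these comparisons as well. Over all genes 19.7% were higher and 19.8% lower between the genotypes with vehicle, and 17.2% and 19.6% with drug. With the drug these shares were 1.18% and 1.89% in U2AF1(WT) and 4.94% and 5.85% in U2AF1(S34F) mice. Between the genotypes with vehicle, 4 of 10 neutrophil markers and 3 of 10 stem and progenitor markers were higher, 1 of 10 stem and progenitor markers was lower, and B cell markers had a median log2 fold change of −0.88 with 0 of 10 called by edgeR. Of 10 T and NK cell markers 3 were higher and 1 lower with vehicle, and of 12 monocyte markers 2 were higher and 2 lower. Of 8 megakaryocyte markers and of 9 stromal and endothelial markers, 1 was higher and 2 lower in each list. Erythroid markers had 0 of 10 called. With sudemycin D6, 5 of 10 B cell and 3 of 10 erythroid markers were lower and 2 of 10 neutrophil markers higher in U2AF1(S34F) mice. In the same comparison 4 of 10 T and NK cell markers were lower, 3 of 8 megakaryocyte markers were lower and 1 higher, 3 of 12 monocyte markers were higher and 1 lower, and 2 of 10 stem and progenitor markers were higher. There, 1 of 9 stromal and endothelial markers was lower. With the drug, 3 of 10 stem and progenitor markers were lower in U2AF1(WT) mice and 5 of 10 in U2AF1(S34F) mice, where 3 of 10 B cell, 3 of 10 T and NK cell and 3 of 8 megakaryocyte markers were also lower and 1 megakaryocyte marker higher. In U2AF1(WT) mice 2 of 10 B cell markers and 1 of 12 monocyte markers were lower and 1 of 8 megakaryocyte markers was higher with the drug. In U2AF1(S34F) mice 1 of 9 stromal and endothelial markers was lower with the drug. Their part in the differences of the members was not tested.

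Genes most like 3 further members over the 20 mice were St13 (r = 0.97), Ide (r = 0.96) and Eif1a (r = 0.96) for Hsp90aa1, Gcdh (r = 0.89), Rpn2 (r = 0.88) and D17H6S56E-5 (r = 0.87) for Hspa8, and Hspa9 (r = 0.98), the mitochondrial Hsp70, Mrps25 (r = 0.97) and Ftsj3 (r = 0.96) for Hspd1. These r values are across mice of both genotypes and carry no test.

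Because sudemycin D6 and U2AF1 both act on splicing, the reads that span exon junctions of the members were read beside the gene counts. Hspa1a has no intron, and no read spanned a junction of Hspa1b. Junction reads per gene read lay between 1.22 and 1.46 for Hspd1 and between 1.20 and 1.48 for Hspe1, but between 0.0842 and 0.174 for Dnajb1. With the drug, 0 of 7 members with enough junction reads were called in either genotype (limma, 0 of 7 at an unadjusted p under 0.05), beside 0.0307% of 9778 genes in U2AF1(WT) mice (809 genes at an unadjusted p under 0.05) and 0% in U2AF1(S34F) mice (533 genes).

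Between the genotypes the junction reads per gene read of Hspe1 were lower in U2AF1(S34F) marrow by 0.16 ± 0.04 on the log2 scale with vehicle (FDR 0.0427, limma) and by 0.16 ± 0.03 with drug (FDR 0.0125), and those of Hspd1 by 0.09 ± 0.03 with vehicle (FDR 0.0449). In the comparison of both with neither they were lower by 0.15 ± 0.03 (FDR 0.0221) for Hspe1 and by 0.07 ± 0.02 (FDR 0.087) for Hspd1. Such calls were frequent, with 23.8%, 17.4% and 21.9% of genes called in the 3 comparisons. They rest on scaling by the library totals, and without it neither gene was called with vehicle or in the comparison of both with neither. Hspd1 and Hspe1 overlap by 112 bases on opposite strands.

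Junctions not in the annotation held 0.033% to 0.26% of the junction reads of Hsph1, Dnajb1, Hsp90aa1, Hsp90ab1, Hspa8, Hspd1 and Hspe1. Their share did not pass the threshold for any of these 7 members in any comparison (limma), while 0.0409% and 0.0716% of genes were called with the drug in U2AF1(WT) and U2AF1(S34F) mice, 0.143% and 0.174% between the genotypes with vehicle and with drug, and 0.757% in the comparison of both with neither. At an unadjusted p under 0.05 there were 1, 0, 0, 1 and 2 members in these comparisons.

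One unannotated junction of Hspa8 followed the genotype. It joins the annotated 5′ splice site at 40609431 on chromosome 9 to an AG 14 bases downstream of the annotated 3′ splice site of the exon that holds the start codon. The exon starts at 40610001 by the annotation and at 40610015 by the downstream site, and the annotated start codon, 40610006 to 40610008, lies between them. The sites are shown because U2AF1 contacts the bases at the 3′ splice site, and capitals mark the AG of each site, the annotated (chr9:40609981-40610003, plus strand) and the downstream (chr9:40609995-40610017).

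Hspa8 annotated site: ctcctttttttttctaatAGcaa
Hspa8 downstream site: taatagcaaccatgtctaAGgga

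The base before the AG is T at the annotated site and A at the downstream site. In U2AF1(S34F) vehicle mice 1, 3, 5, 7 and 11 the downstream site took 1.64%, 2.58%, 2.29%, 0% and 2.01% of the reads of the 2 sites. In drug-treated U2AF1(S34F) mice 2, 6, 9, 10 and 12 it took 1.99%, 1.56%, 2.47%, 2.10% and 2.39%. These shares are 72 to 132 reads in 9 of 10 mice beside 3636 to 5038 at the annotated site. In U2AF1(WT) mice 0 to 2 reads used it beside 2481 to 6619 at the annotated site, a share of 0% in each of the 5 vehicle mice and of up to 0.0533% with drug. The group means were 0%, 0.0193% ± 0.0266, 1.70% ± 1.01 and 2.10% ± 0.361 (SD, n = 5) for U2AF1(WT) with vehicle and with drug and U2AF1(S34F) with vehicle and with drug.

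By counting error alone, the 0 of U2AF1(S34F) vehicle mouse 7 allows a share of up to 0.0834% by the limit of 3 reads. The Wilson interval reaches 0.107%, and both are below the shares of the other 9. This mouse carried its genotype's label elsewhere: of 24 unannotated autosomal junctions with at least 20 reads in each drug-treated U2AF1(S34F) mouse and none in drug-treated U2AF1(WT) mice, it had reads at 23, and the other U2AF1(S34F) vehicle mice at 21 to 24, against 1 to 9 in U2AF1(WT) vehicle mice. Counts of 0 also occurred at annotated junctions of members. The Hsp90ab1 junction 45707491 to 45708828 had 0 reads in drug-treated U2AF1(WT) mouse 9 and 113 to 365 in the other mice. The Hspa8 junction 40610706 to 40610879 had 0 reads in 4 mice, mouse 7 among them, and 37 to 114 in the others. Such zeros were not rare. The Hspa8 junction 40609703 to 40610001 had 0 reads in most mice of both genotypes and 86 to 151 in the others. The Hsp90aa1 junction 111933890 to 111933976 had 0 reads in many mice and 36 to 109 in the others. Whether a 0, also at the downstream site in U2AF1(WT) mice, means no use of a site or a loss in processing was not tested. Hspa8 had 5 unannotated junctions with at least 100 reads over all mice. Among them, 40612778 to 40613022 had 234 reads in U2AF1(WT) vehicle mouse 1, 206 in U2AF1(S34F) vehicle mouse 5 and 0 in the other mice. The junction 40610706 to 40610873 had 0 to 2 reads in U2AF1(WT) mice and 0 to 44 in U2AF1(S34F) mice. The downstream junction was chosen after its values were seen and is given with no test. Every 95% interval and limit covers counting error only.

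**Figure D5:**
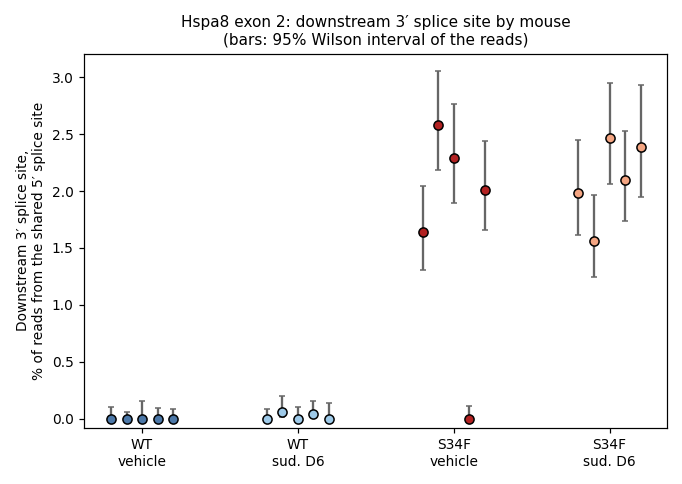
Share of the downstream 3′ splice site of Hspa8 (vertical axis, percent of the reads of both sites) in each mouse by group, with 95% Wilson intervals. Of 10 U2AF1(S34F) mice 9 lie between 1.56% and 2.58%, and the 10 U2AF1(WT) mice and U2AF1(S34F) vehicle mouse 7 lie at or below 0.0533%.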

How the data were processed

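RNA-seq counts of 20 mouse bone marrow samples in 4 groups of 5 were used. The authors aligned stranded, ribosome-depleted total RNA libraries with TopHat2 2.0.8 to mm9 and deposited read counts per gene and per splice junction (554616 junctions, 181355 of them annotated). The gene counter and its strand setting are not given in the sources used here. The junction table also holds a mark of 0 or 1 for skipped exons, which was not used. Genes were named and placed with GENCODE vM1. Counts were tested with edgeR 4.0.16 (filterByExpr, TMM, quasi-likelihood F test, prior count 2, FDR<10% by Benjamini-Hochberg over all genes tested) within the groups compared, with genotype as a term over all mice, and as an interaction. CPM use TMM library sizes, and ± is SE for fold changes and SD for levels. DESeq2 1.42.0 was an alternative. The study's methods name DESeq2 as its tool. Junction ratios were tested with limma 3.58.1 on log2 ratios with a pseudocount of 1, and unannotated shares on logits with 0.5, for genes with a mean of at least 100 junction reads. Scripts were tested on simulated data. R 4.3.3, Python 3.11.15, pandas 2.3.3, NumPy 2.4.6, SciPy 1.17.1 and matplotlib 3.10.9 were used. Correlations had 100000 permutations over 5 relations.

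Named were all members, all HSF genes, from each of the other chaperone lists up to 2 genes per comparison of 2 groups with the largest change past FDR<10% and at least 1 CPM, and the 3 genes most like each of 5 members. Values of these genes in the comparison of both with neither are left out. Hspb1, also named in that rule, was too low for the likeness measure. The members and lists were chosen with earlier results of these data known. Each gene total bounds the precision, and intervals (95%, Wilson) and the limit of 3 reads cover counting error only. No 2 mice of a group agreed within sampling noise. Same-numbered mice were checked as pairs: their deviations correlated at −0.11 to 0.154 over 3 pairs with vehicle and at −0.18 to 0.366 over 4 pairs with drug. In each treatment 2 pairs were above 0.1. So few pairs cannot tell whether numbers pair mice, and the main fits use no pairing.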

Additional observations from a re-analysis of the deposited data

Results flagged for a closer look

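In 2 of 44 sets of 5 mice (the levels of the 10 members and the share of the downstream Hspa8 splice site, in 4 groups), 1 mouse stood far from the other 4, where chance gives about 1 in 20. Hsp90ab1 in drug-treated U2AF1(S34F) mouse 10 was at 984 CPM, while the other 4 mice lay between 768 and 831 CPM. Hspb1 in U2AF1(WT) vehicle mouse 2 was at 0.234 CPM, while the other 4 lay between 0.0475 and 0.083 CPM, a level of a few reads.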

How the results depend on the processing

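No member changed direction among the called results under any alternative. With DESeq2, the genes called with the drug were 338 higher and 481 lower in U2AF1(WT) mice (174 and 279 with edgeR) and 1095 higher in U2AF1(S34F) mice (727), and the interaction called 94 higher and 22 lower (2 and 0). In 1 model of all mice they were 549 higher and 523 lower (U2AF1(WT)) and 396 higher and 392 lower (U2AF1(S34F)) (861 lower in the pairwise fit), and 0 members rather than 1 were higher between genotypes with vehicle. At FDR<5% the drug calls were 86 and 157 genes with 0 members (U2AF1(WT)), 382 and 444 genes (U2AF1(S34F)) and 756 higher (1193) with genotype as a term, and members higher were 0 with vehicle and 2 rather than 4 for both against neither. The interaction called 8 genes higher with at least 1 CPM in 5 mice and 10 with no filter.

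With the replicate block, on the mice that share a number, 5 members were higher between genotypes with vehicle rather than 1. The same mice without the block, an alternative chosen after seeing the data, also gave 5. Hsph1 was no longer called (FDR 0.31 with the block and 0.219 without it). With vehicle these fits hold only mice 1, 3 and 5 of each genotype. U2AF1(WT) mouse 2 and U2AF1(S34F) mouse 7, without which members were also gained above, are thus left out. The number of genes called was 2249 higher and 2374 lower with the block and 2605 and 2575 without it with vehicle, and 1868 and 1962 against 1866 and 2081 with drug. Whether same-numbered mice are pairs could not be told.

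For junction reads per gene read, dropping the library scaling gave 482 genes and 0 members (2325 and 2) with vehicle, 868 genes (1705) with drug, and 254 genes and 0 members (2138 and 2) for both against neither, and a minimum of 20 reads gave 1 gene (3) with the drug in U2AF1(WT) mice and 1 member for both against neither. Unannotated shares at 20 reads gave 1 gene (4) and 0 genes (7) with the drug.

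Leaving out single mice gave 0 to 1 members lower, 62 to 292 genes higher and 129 to 438 lower with the drug in U2AF1(WT) mice, and 408 to 857 higher and 505 to 879 lower in U2AF1(S34F) mice. It gave 0 to 4 members higher between genotypes with vehicle, 2 to 5 for both against neither and 0 to 1 with genotype as a term, and 2 to 83 genes higher and 0 to 4 lower in the interaction. For the junction ratio it gave 0 to 10 and 0 to 1 genes with the drug, 1339 to 3027, 1085 to 2164 and 1177 to 3133 between groups, with 1 to 3 members in each, and for the unannotated share 0 to 7, 0 to 7, 8 to 22, 14 to 29 (0 to 1 members) and 23 to 80 genes. The cause of these changes was not tested. Hspb1, at 0 to 13 reads, is limited by depth.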
